A study of Homo sapiens with 6 samples.

Results

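Aminoacyl-tRNA synthetases attach each amino acid to its tRNA and so supply the ribosome with charged tRNA. Human cells carry a cytosolic set and a mitochondrial set, both encoded in the nucleus, and for most amino acids a separate gene serves each compartment. GARS1 and KARS1 are exceptions, since each makes a cytosolic and a mitochondrial form. Several cytosolic synthetases sit in a multi-synthetase complex held together by the scaffold proteins AIMP1 and AIMP2. When amino acids run short or the endoplasmic reticulum is stressed, the transcription factor ATF4 is made and is known to switch on amino acid synthesis and transport genes together with a number of cytosolic synthetase genes.

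The genes described are 19 cytosolic synthetase genes, 16 mitochondrial ones (symbols ending in 2) and the 2 AIMP genes, 37 in all. Probe sets that name a single gene were used, and each gene was read from its brightest one, by mean level over all samples. In this way 36 of the 37 genes were measured, of 18132 genes on the array; AIMP2 was not analysed here. No member was removed for a low level. Messenger RNA of the human glioblastoma line U87 was measured on 1-colour arrays, in 3 samples with miR-151a overexpressed (miR-151a UP) and 3 with the control microRNA (miR-NC). The sources used here do not state the vector or mimic, the arm of miR-151a, the time, or whether the samples were separate cultures, so the spread that p-values rest on may be technical. Median probe set intensities ran from 57.1 to 58.6 over the 6 arrays, so a change common to most transcripts could not be measured, and in bulk RNA fewer expressing cells and less RNA per cell cannot be told apart. Of 6 genes listed as markers of the line (VIM, CD44, FN1, S100A6, GFAP and NES), 0 rose and 1 fell, while of all genes 7.27% rose and 8.11% fell. The mesenchymal gene VIM had a mean intensity of 19170 with miR-151a and 19019 with miR-NC. GFAP, the dimmest of the 6, had 61.4 with miR-151a and 63.2 with miR-NC, near the median probe set, and NES had 134 and 166. NES, a filament gene of neural progenitors, fell by 0.31 on the log2 scale (limma adjusted p = 0.0079) and passed as lower in all 14 alternative settings. The adhesion receptor gene CD44 was lower with miR-151a in every sample, at -0.16 (limma adjusted p = 0.11). The 7 measured markers of immune, epithelial, endothelial and oligodendrocyte cells had mean intensities from 8.09 to 49.9, and 0 of them passed (1 at an unadjusted limma p under 0.05). Over all 18132 genes 5223 had an unadjusted p that low. The part of these markers in the changes below was not tested. The 3 prime over 5 prime ratio of the beta-actin control, which can follow RNA quality, was on the log2 scale 0.29 ± 0.015 with miR-151a and 0.40 ± 0.030 with miR-NC (SD, n = 3 each); its part in the changes below was not tested. The same ratio for GAPDH was 0.047 ± 0.0042 with miR-151a and 0.041 ± 0.011 with miR-NC (SD, n = 3 each).

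Promoter stretches of the members are shown first because one element recurs in them. ATF4 binds with C/EBP proteins to a composite element, also called the amino acid response element, whose core was searched as TGATGNAA on both strands (TTNCATCA on the other strand) in RefSeq promoters of GRCh38.p14, from 250 bases before to 50 bases after each annotated start. Of the 37 genes, 32 had a promoter in that table; AARS2, LARS1, VARS1, VARS2 and YARS1 did not. The core was found in 8 members: AARS1, CARS1, GARS1, IARS1, MARS1, NARS1, TARS1 and YARS2. Each stretch holds 60 bases, 5′ to 3′ on the gene's strand, with the 8 bases of the match in capitals.
AARS1: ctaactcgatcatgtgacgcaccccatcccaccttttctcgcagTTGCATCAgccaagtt
CARS1: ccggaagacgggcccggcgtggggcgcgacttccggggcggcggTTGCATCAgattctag
GARS1: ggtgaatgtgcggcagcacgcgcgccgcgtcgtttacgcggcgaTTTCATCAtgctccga
IARS1: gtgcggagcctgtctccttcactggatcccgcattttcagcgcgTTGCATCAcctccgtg
MARS1: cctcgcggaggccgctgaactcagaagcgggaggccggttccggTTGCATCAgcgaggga
TARS1: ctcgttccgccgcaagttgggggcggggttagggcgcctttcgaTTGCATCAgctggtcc
NARS1: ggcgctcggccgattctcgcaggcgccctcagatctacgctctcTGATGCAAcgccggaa
YARS2: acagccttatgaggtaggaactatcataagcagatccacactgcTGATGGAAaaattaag
These stretches lie at chr16:70289678-70289737 (AARS1, minus strand), chr11:3057410-3057469 (CARS1, minus), chr7:30594801-30594860 (GARS1, plus), chr9:92293695-92293754 (IARS1, minus), chr12:57488020-57488079 (MARS1, plus), chr5:33440923-33440982 (TARS1, plus), chr18:57621807-57621866 (NARS1, minus) and chr12:32756079-32756138 (YARS2, minus). The letters TTGCATCA recur in AARS1, CARS1, IARS1, MARS1 and TARS1, all in the same orientation to the gene, and GARS1 holds TTTCATCA in that orientation. NARS1 has the same element in the other orientation. In CARS1, MARS1, TARS1, IARS1 and NARS1 the first base of the match lies at -2, -4, 3, -13 and 15 from the annotated start, in GARS1 at -33, and in AARS1 and YARS2 farther upstream, at -187 and -197. The matches of TARS1 and NARS1 thus fall within the transcribed part, those of CARS1 and MARS1 span the start, and the others are upstream of it. CARS1, GARS1 and TARS1 have 2 annotated starts each, and their positions are from the start whose promoter holds the match. The element was found in 7 of 16 cytosolic genes with a promoter in the table (43.8%), in 1 of 14 mitochondrial genes (7.14%) and in 4.46% of all 27305 genes. Counted by promoter, of which a gene can have several, the share was 3.62% of all 35116. A match is only a run of letters, and no binding was measured.

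A majority of cytosolic synthetase genes rose with miR-151a, and no mitochondrial one passed as higher. Of 19 cytosolic genes, 11 rose (57.9%) and 0 fell at an adjusted p of 0.05 in limma, with a median log2 fold change of 0.22. Of all genes 7.27% rose and 8.11% fell, and the median over all genes was -0.01. Of 16 mitochondrial genes, 0 rose and 1 fell, and their median was -0.05. At an unadjusted limma p under 0.05, 2 cytosolic genes were lower, and 0 mitochondrial genes were higher and 3 lower. Of all 18132 genes 5223 had such a p, 2898 of them lower. Under each of the alternative settings between 9 and 12 cytosolic genes rose; leaving out miR-151a UP replicate 2 or 3, or miR-NC replicate 3, left 10, and leaving out miR-NC replicate 1 or 2 left 9.

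**Figure D1:**
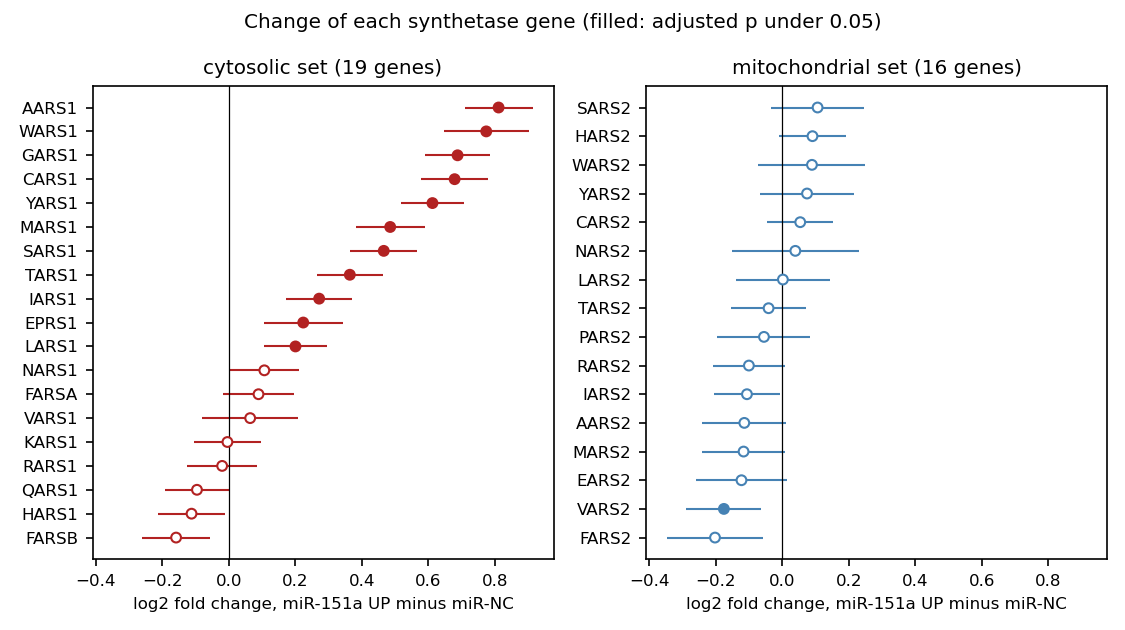
Log2 fold change (miR-151a UP minus miR-NC, x axis) of each cytosolic gene (left) and mitochondrial gene (right), with the 95% interval of the limma fit; filled points passed an adjusted p of 0.05. Cytosolic genes run from -0.16 to 0.81 and mitochondrial genes from -0.20 to 0.11.

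AARS1, which charges alanine, had the largest change of the members. Its intensity was 882, 931 and 916 in the miR-151a samples, against 519, 520 and 514 in the miR-NC samples. The groups lay far apart compared with their spread, a 1.76-fold difference (log2 fold change 0.81, SE 0.044, adjusted p = 3.6e-05 in limma). WARS1, the tryptophan enzyme, also known as an interferon-induced gene, had 1667, 1771 and 1872 with miR-151a and 1047, 1047 and 1006 with miR-NC. That is a 1.71-fold rise (log2 0.77, SE 0.055, limma adjusted p = 0.00015), with more spread among the miR-151a samples than AARS1 had.

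GARS1, which charges glycine and serves both compartments, reached 3966, 3967 and 3831 with miR-151a, against 2432, 2432 and 2435 with miR-NC. All miR-151a values exceeded all miR-NC values, by 1.61-fold on average (log2 0.69, SE 0.042, limma adjusted p = 6.9e-05). CARS1, the cysteine enzyme, had 713, 733 and 731 with miR-151a and 449, 464 and 446 with miR-NC, a 1.60-fold rise (log2 0.68, limma adjusted p = 8.1e-05). YARS1, the tyrosine enzyme, had 1061, 1057 and 1045 with miR-151a and 687, 697 and 684 with miR-NC, a 1.53-fold rise (log2 0.61, limma adjusted p = 0.00011). The replicates of YARS1 were close in both groups, but the gene was read from its single probe set.

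MARS1, which charges methionine both for the first position and within chains, had 959, 1022 and 991 with miR-151a and 706, 710 and 706 with miR-NC, a 1.40-fold rise (log2 0.49, limma adjusted p = 0.00054). SARS1, the serine enzyme that also charges the selenocysteine tRNA, had 2467, 2544 and 2455 with miR-151a and 1823, 1764 and 1818 with miR-NC, a 1.38-fold rise (log2 0.47, limma adjusted p = 0.00057). TARS1, for threonine, had 2934, 3066 and 3017 with miR-151a and 2350, 2313 and 2342 with miR-NC, a 1.29-fold rise (log2 0.36, limma adjusted p = 0.0016). In these genes too no sample of either group reached the range of the other.

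The smallest rises that passed were in 3 subunits of the complex. IARS1, the isoleucine enzyme, had 3562, 3618 and 3480 with miR-151a and 2964, 2902 and 2963 with miR-NC (log2 fold change 0.27, limma adjusted p = 0.0054). EPRS1, a fusion enzyme for glutamate and proline, had 856, 914 and 849 with miR-151a and 726, 743 and 774 with miR-NC (log2 fold change 0.22, limma adjusted p = 0.024). LARS1, the leucine enzyme that also acts as a leucine sensor for mTORC1, had 1455, 1464 and 1468 with miR-151a and 1270, 1273 and 1275 with miR-NC (log2 fold change 0.20, limma adjusted p = 0.015). The groups did not overlap in any of the 3, but the calls of EPRS1 and LARS1 were not firm. The adjusted p of EPRS1 was 0.068, 0.083 and 0.080 without miR-151a UP replicate 2, miR-NC replicate 1 and miR-NC replicate 2, and that of LARS1 was 0.051, 0.053, 0.059 and 0.054 without miR-151a UP replicate 3 and miR-NC replicates 1, 2 and 3. With the mean over its probe sets LARS1 was at 0.09 (adjusted p = 0.24).

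The other 8 cytosolic genes did not pass in the main fit. Of the 14 alternative settings, NARS1 passed as higher in 3, and FARSB, HARS1 and QARS1 passed as lower in 4, 2 and 2. NARS1, the asparagine enzyme, had 2139, 2245 and 2214 with miR-151a and 2090, 2008 and 2030 with miR-NC, groups that do not overlap (log2 fold change 0.11, limma adjusted p = 0.16). FARSA and FARSB, the alpha and beta subunits of the same phenylalanine enzyme, differed in sign. FARSA was at 0.09, with a 95% interval from -0.02 to 0.20, while FARSB was at -0.16, from -0.26 to -0.06, with a limma adjusted p of 0.0502. The next brightest FARSB probe sets were at -0.08, -0.06 and -0.03, with groups that overlapped and intervals that included 0, and the dimmest was at -0.16. For VARS1, KARS1 and RARS1, the valine, lysine and arginine enzymes, the groups overlapped and the log2 fold changes were 0.06, -0.0043 and -0.02, and the intervals of KARS1 and RARS1 stayed between -0.13 and 0.10. QARS1 and HARS1, the glutamine and histidine enzymes, had lower values with miR-151a in every sample, at -0.10 and -0.11 (limma adjusted p = 0.18 and 0.13). The dimmer probe set of QARS1 was at 0.03, with groups that overlapped.

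Sorted by structure, 6 of 9 cytosolic enzymes of class I, whose catalytic domain is a Rossmann fold, rose, with a median log2 fold change of 0.27. Of 9 cytosolic enzymes of class II, which have an antiparallel sheet in its place, 4 rose, with a median of 0.11; EPRS1 holds a domain of each class. In the multi-synthetase complex 4 of 7 synthetases rose (IARS1, EPRS1, LARS1 and MARS1, median over the 7 of 0.20), and outside it 7 of 12 rose (median 0.42). The highest change within the complex was 0.49, against 0.81 outside it, and whether these groups differ was not tested. The scaffold gene AIMP1 had 869, 975 and 884 with miR-151a and 829, 820 and 808 with miR-NC (log2 fold change 0.15, limma adjusted p = 0.12), and its 5 probe sets ran from -0.19 to 0.15. AIMP1 passed as higher in 2 of the 14 alternative settings.

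Log2 fold changes of the mitochondrial genes ran from -0.20, for FARS2, to 0.11, for SARS2. PARS2 was at -0.06, and neither SARS2 nor PARS2 passed. VARS2, the mitochondrial valine enzyme, had 108, 115 and 114 with miR-151a and 125, 124 and 131 with miR-NC, and was the single mitochondrial gene past the threshold (log2 fold change -0.18, limma adjusted p = 0.048). That call did not hold in any fit with a sample left out: the adjusted p was 0.11, 0.078 and 0.093 without miR-151a UP replicates 1, 2 and 3 and 0.097, 0.099 and 0.15 without miR-NC replicates 1, 2 and 3. It was also 0.39 with the mean over the probe sets of VARS2. FARS2, the mitochondrial phenylalanine enzyme, had 296, 267 and 306 with miR-151a and 324, 330 and 345 with miR-NC (log2 fold change -0.20, limma adjusted p = 0.067). FARS2 passed as lower in 4 of the 14 alternative settings, and IARS2, at -0.11, in 2. Of the 16 genes 7 had a positive and 9 a negative log2 fold change. Groups did not overlap in 8 mitochondrial genes, 2 higher and 6 lower, beside 16 of the 19 cytosolic genes, 13 higher and 3 lower; over all genes the share was 34.5%, with 15.1% higher and 19.4% lower.

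Mitochondrial synthetase probe sets were dimmer, with mean intensities from 73.5 to 2422, against 380 to 3248 for the cytosolic ones, and their standard errors were somewhat larger, with a median of 0.057 against 0.044. Read from the brightest probe set of each gene, the highest upper 95% bound among the 16 mitochondrial genes was 0.2502 on the log2 scale, for WARS2, and 8 cytosolic genes (AARS1, CARS1, GARS1, MARS1, SARS1, TARS1, WARS1 and YARS1) had a lower bound above that value. CARS2, the cysteine enzyme, read from the brightest probe set of the mitochondrial genes, had 2432, 2516 and 2455 with miR-151a and 2343, 2371 and 2417 with miR-NC. The groups did not overlap, and its log2 fold change was 0.05, with an interval from -0.05 to 0.15. The bound does not cover dimmer probe sets: in the fit over all probe sets 6 of 35 mitochondrial ones had an upper 95% bound above 0.2502, among them the dimmest CARS2 probe set, at 0.93 with an interval from 0.68 to 1.18.

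**Figure D2:**
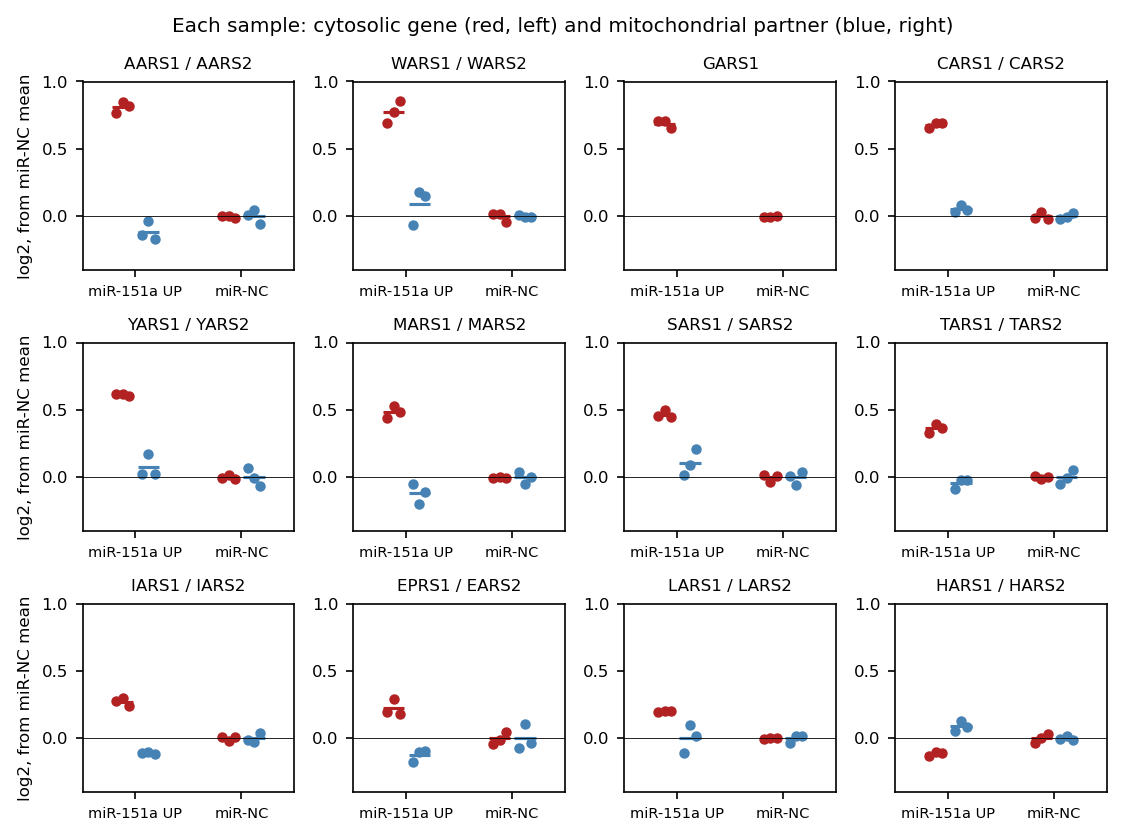
Each of 6 samples as a point, on the log2 scale relative to the mean of the miR-NC samples (y axis), for the cytosolic gene (red, left) and its mitochondrial partner (blue, right); miR-151a UP on the left, miR-NC on the right, bars at group means. In the first 11 panels the miR-151a points of the cytosolic gene lie above its miR-NC points, and in the last, HARS1, below them.

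Partners for the same amino acid were set against each other within each array. For 17 pairs of a cytosolic and a mitochondrial gene, the log2 difference between them was taken in every sample and compared between the groups. This difference was larger with miR-151a in 16 pairs and smaller in 1, with a median shift of 0.35. The shift was 0.93 ± 0.043 (SE, n = 3 each) for AARS1 against AARS2, 0.69 ± 0.051 for WARS1 against WARS2, 0.63 ± 0.026 for CARS1 against CARS2, 0.60 ± 0.074 for MARS1 against MARS2 and 0.54 ± 0.061 for YARS1 against YARS2. In 14 pairs the groups did not overlap, which gives the smallest p that an exact two-sided permutation test of 3 against 3 samples allows, 0.1 (0.12 after Benjamini-Hochberg adjustment over the 17 pairs), so no pair could reach 0.05. How often pairs of other genes do this was not counted, and among single genes the groups did not overlap in 34.5%. The pairs RARS1 with RARS2, NARS1 with NARS2 and FARSB with FARS2 overlapped, with shifts of 0.08, 0.07 and 0.04. With 1 sample left out the shift ran from -0.0090 to 0.12 for NARS1 with NARS2 and from -0.0024 to 0.082 for FARSB with FARS2, so their signs were not firm. EPRS1 and FARS2 each stand in 2 pairs, so the pairs are not independent.

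With the mean over all probe sets of each gene, the shift was 0.33 for CARS1 against CARS2, 0.09 for LARS1 against LARS2 (0.20 by the brightest probe sets) and -0.06 for HARS1 against HARS2. The histidine pair was the one that ran the other way, at -0.20 ± 0.024 (SE, n = 3 each). HARS1 had 777, 794 and 789 with miR-151a and 832, 850 and 869 with miR-NC, whereas HARS2 had 196, 206 and 200 with miR-151a and 187, 190 and 187 with miR-NC. These genes lie head to head on chromosome 5, with annotated starts 85 bases apart, at 140691370 for HARS1 on the minus strand and 140691455 for HARS2 on the plus strand (GRCh38.p14). Neither gene passed, and the 2 dimmer probe sets of HARS1 were at 0.08 and 0.03.

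**Figure D3:**
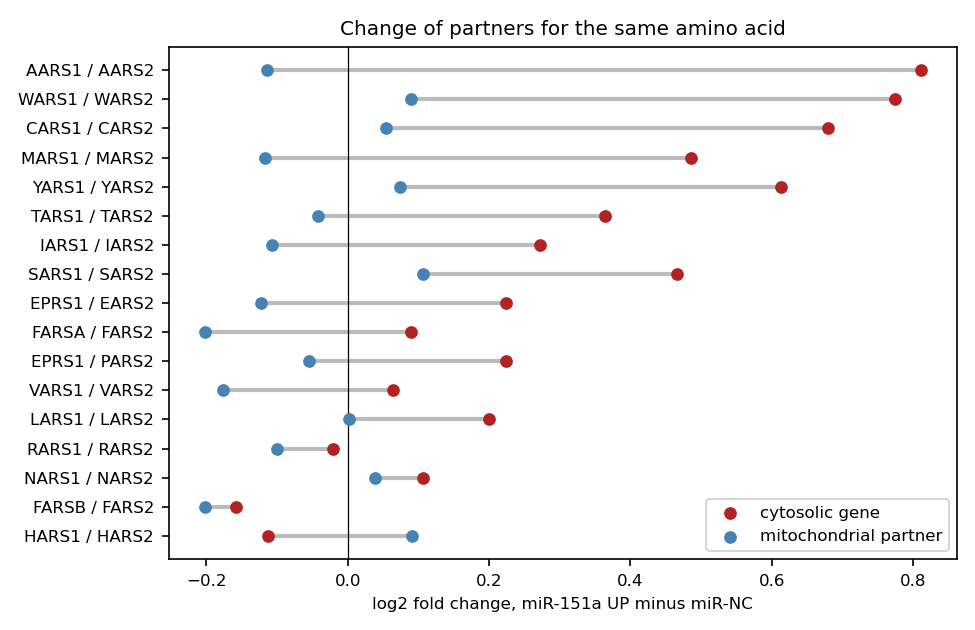
Log2 fold change (miR-151a UP minus miR-NC, x axis) of the cytosolic gene (red) and its mitochondrial partner (blue) for 17 pairs, ordered by the difference. The gap is widest for AARS1 with AARS2 (0.93) and turns for HARS1 with HARS2 (-0.20).

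Probe sets of a gene mostly moved together in the cytosolic set. Of 53 cytosolic probe sets 27 rose and 0 fell at an adjusted p of 0.05 over all 49293 probe sets, with 6.81% of all probe sets higher and 7.27% lower. All probe sets rose for AARS1 (2), CARS1 (3), EPRS1 (2), GARS1 (2), IARS1 (4) and TARS1 (3), and for WARS1 3 of 4 and MARS1 4 of 5, where the probe sets that did not pass were the dimmest. Of 3 for LARS1 1 rose, and the dimmest was at -0.12. For NARS1, whose brightest probe set did not pass, 1 of 4 did, at 0.24, with 658, 619 and 647 in the miR-151a samples against 524, 540 and 562 in the miR-NC samples. The brightest probe sets of MARS1 and VARS2 end in _x_at, and those of EARS2, FARSB, IARS2, TARS1 and YARS1 in _s_at, suffixes that Affymetrix gives to probe sets able to match other transcripts as well.

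Of 35 mitochondrial probe sets, 1 rose and 1 fell. The rise was in the dimmest of 3 probe sets of CARS2, with 107, 114 and 129 in the miR-151a samples against 57.5, 54.4 and 70.9 in the miR-NC samples, a log2 fold change of 0.93 (limma adjusted p = 0.0015), while the brighter ones were at 0.05 and 0.06. This was the largest change of any member probe set. With the mean over its probe sets CARS2 was at 0.35 (adjusted p = 0.0033) and counted as the 1 mitochondrial gene that rose in that fit. The fall was in the second of 4 probe sets of WARS2, with 68.1, 65.4 and 68.9 in the miR-151a samples against 81.8, 82.3 and 83.5 in the miR-NC samples (log2 fold change -0.29, limma adjusted p = 0.0071), while the brightest was at 0.09. For VARS2 no probe set passed over all probe sets.

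**Figure D4:**
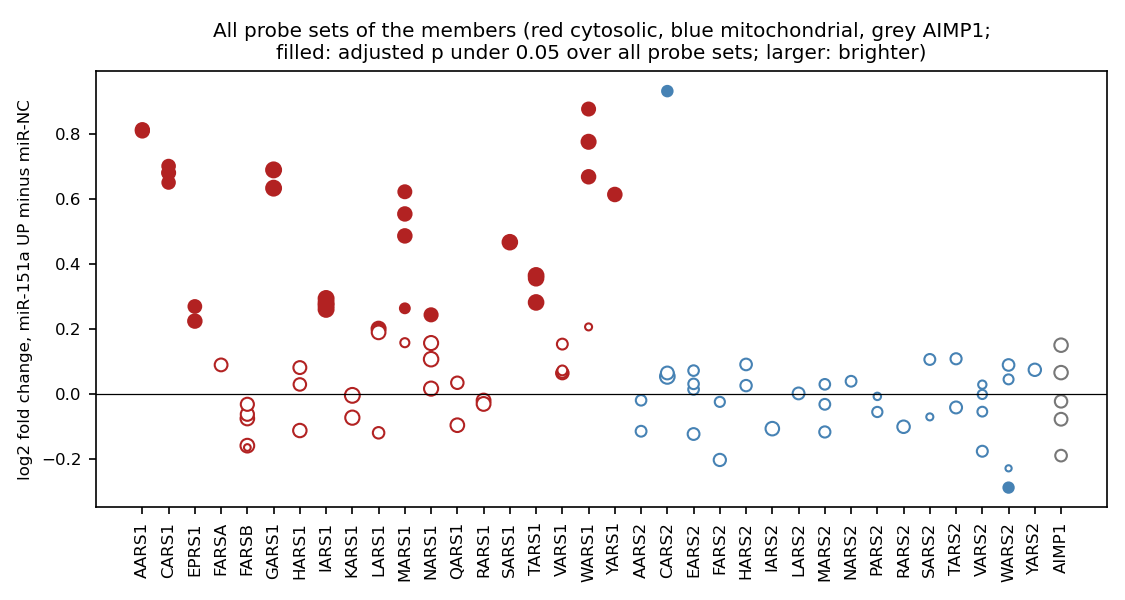
Log2 fold change (miR-151a UP minus miR-NC, y axis) of all 93 probe sets that name a single member, by gene (x axis); filled points passed an adjusted p of 0.05 over all probe sets, and larger points are brighter. Filled red points stand above 0 in 12 cytosolic genes, and the blue ones are a CARS2 probe set at 0.93 and a WARS2 probe set at -0.29.

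The element shown above was set beside the changes. It was found in 6 of 9 cytosolic genes that rose and have a promoter in the table (AARS1, CARS1, GARS1, IARS1, MARS1 and TARS1, not EPRS1, SARS1 or WARS1) and in 1 of the 7 that did not pass (NARS1). Among all array genes that rose 5.22% of 1072 held it, against 3.62% of all 14425 array genes with a promoter in the table. The position of the element was not tested against the size of the change. AARS1, at -187, and CARS1, at -2, rose by 0.81 and 0.68, and GARS1 at -33 and MARS1 at -4 by 0.69 and 0.49. TARS1 at 3 and IARS1 at -13 rose by 0.36 and 0.27, and NARS1, at 15, was at 0.11 and did not pass. YARS2, the mitochondrial gene with a match, was at 0.07. The motif was chosen with the changes known, so its counts are a description.

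**Figure D5:**
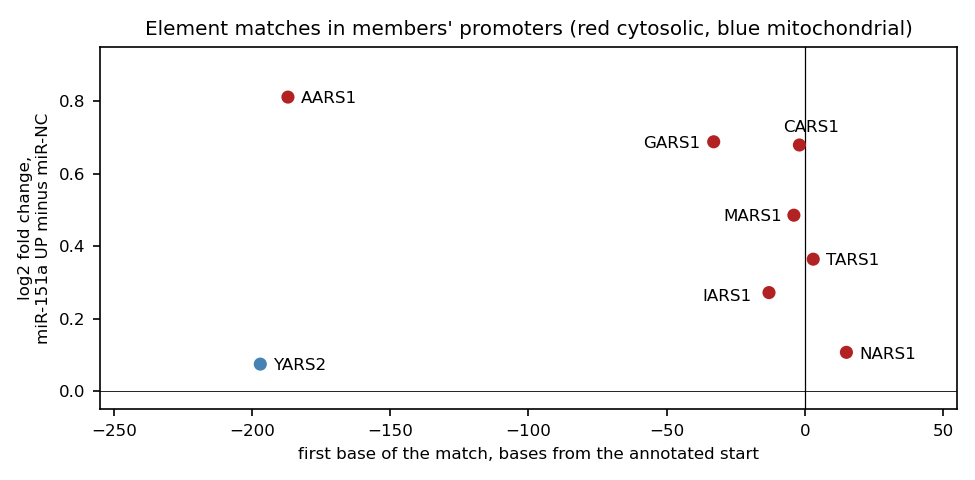
Log2 fold change (miR-151a UP minus miR-NC, y axis) against the distance of the first base of the TGATGNAA match from the annotated start (x axis, bases), for the 8 members with a match; cytosolic genes in red, YARS2 in blue. In 6 members the match lies between -33 and 15, and in AARS1 and YARS2 at -187 and -197.

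ATF4 itself and 3 genes known to respond to it were higher with miR-151a. ATF4 was at 0.23, its partner DDIT3 at 1.10, the pseudokinase gene TRIB3 at 1.26 and the asparagine synthetase gene ASNS at 1.51 on the log2 scale (limma adjusted p = 0.014 for ATF4). The call of ATF4 was not firm, with an adjusted p of 0.053 and 0.052 without miR-NC replicates 1 and 2, while DDIT3, TRIB3 and ASNS passed in all 14 alternatives. All 11 cytosolic rises were below those of DDIT3, TRIB3 and ASNS, and 9 of the 11 were above that of ATF4.

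Lists of genes that work beside the synthetases had between 0% and 27.8% of their measured members past the threshold, against 15.4% of all genes. An unadjusted limma p under 0.05 was found in 5223 of all 18132 genes. Of 8 measured partners of tRNA charging, among them QRSL1, GATB and GATC, which make mitochondrial glutaminyl-tRNA in place of a synthetase, 0 passed (1 at an unadjusted limma p under 0.05), with a median log2 fold change of -0.01. The nearest was SEPSECS, of selenocysteine synthesis, at 0.23 (adjusted p = 0.093), which passed at 0.41 with the mean over its probe sets (adjusted p = 0.0069). Of 18 genes of tRNA maturation and export 5 passed (27.8%). The tRNA isopentenyltransferase TRIT1 rose by 0.31, the methyltransferase TRMT5 by 0.26 and LAGE3 by 0.22, and 2 genes fell, among them the tRNA 3 prime processing nuclease ELAC2 at -0.17. TRIT1 and TRMT5 passed in all 14 alternatives. LAGE3 did not pass in 5 of the 6 fits without 1 sample (adjusted p from 0.054 to 0.081), the exception being that without miR-151a UP replicate 2, nor with the variance trend, the replicate block or the mean over its probe sets (0.059, 0.066 and 0.16), and the 2 falls became 0 in each of the 6.

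Of 8 cytosolic elongation genes 1 fell (12.5%) and 0 rose. The fall was in the kinase gene EEF2K, whose product slows elongation, at -0.45 (limma adjusted p = 0.014), and it passed in all 14 alternatives; no other of the 8 had an unadjusted p under 0.05. With a pseudocount of 32, a variance trend or the mean over probe sets 2 of these genes rose beside that fall. Of 8 mitochondrial translation factors 0 passed (2 at an unadjusted limma p under 0.05), but these 2 passed in some of the alternatives. The recycling factor gene MRRF was at 0.18 (adjusted p = 0.053) and passed as higher in 7 of the 14 alternatives, without miR-151a UP replicate 2 among them (0.22, adjusted p = 0.041). The elongation factor gene GFM1 was at -0.15 (adjusted p = 0.098) and passed as lower with a pseudocount of 32 and with the variance trend (adjusted p = 0.033 and 0.010). With the mean over probe sets 1 other translation factor gene passed as lower.

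Among 75 genes with symbols beginning MRPL or MRPS, nearly all of the mitochondrial ribosome, 7 passed (9.33%). Of these 5 rose (MRPS18C at 0.22, MRPS31 at 0.22, MRPS30 at 0.18 and, among the others, MRPL20-AS1, an antisense RNA gene) and 2 fell, with MRPL18 at -0.21, and the median was -0.03. The balance turned with the processing: 7 rose and 8 fell with a pseudocount of 32, 7 rose and 10 fell with the variance trend, 3 rose and 5 fell with the mean over probe sets, and 0 rose and 0 fell with the replicate block. The 5 rises became 3, 0 and 1 without miR-151a UP replicates 1, 2 and 3 and 1, 0 and 1 without miR-NC replicates 1, 2 and 3, and the 2 falls became 0, 0 and 1 and then 0, 0 and 1 in the same fits.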

How the data were processed

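The deposited table holds linear probe set intensities, 1 column per sample, for 49395 probe sets, of which 102 controls were left out of the tests. MAS5 is named per the submitters' processing notes, with no version or role; the sources used here give neither background correction nor scaling. Total RNA was taken with Trizol, per the labels' protocols. Of 49293 probe sets, 44988 name 1 gene, 1832 several and 2473 none in the platform annotation; symbols were updated by Entrez identifier to RefSeq (GRCh38.p14).

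Values were taken as log2(intensity + 1), which understates changes of dim genes, and fitted over all 18132 genes or all probe sets with limma 3.58.1 in R 4.3.3 (no covariate, Benjamini-Hochberg adjustment, threshold 0.05). The limma fit alone was tried on simulated data with known changes, and the share recovered is not given here. Partner differences used an exact permutation test. All members are named; of each neighbouring gene list, up to 4 passing genes by smallest p, or 2 where none passed. Members, lists and motif were chosen with earlier results of these data known. As alternatives, arrays were quantile normalized, median centred or weighted, 32 was added in place of 1, probe sets below the lower quartile were omitted, the variance was given a trend with robust fitting, the replicate number was a block, probe sets of a gene were averaged, and each sample was left out. The number of arrays limits the precision. Figures were drawn with matplotlib 3.10.9.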

Additional observations from a re-analysis of the deposited data

How the results depend on the processing

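The medians of both sets moved by less than the spread between replicates in all alternatives except the variance trend and array weights, which were not computed for them, and AARS1, CARS1, GARS1, IARS1, MARS1, SARS1, TARS1, WARS1 and YARS1 passed as higher in all 14 alternatives. Genes called in all numbered 2788, 4231 with a variance trend and robust fit, 1727 with the replicate block and 1709 to 2017 without 1 sample. Cytosolic genes called lower numbered 1 with median centring or the lower quartile left out and 3 with a pseudocount of 32 or the variance trend. Mitochondrial genes called lower numbered 2, 2, 3 and 3 in these fits, and 0 with the replicate block, with the mean over probe sets and without any 1 sample; 1 mitochondrial gene was higher with the mean over probe sets. With the replicate block 9 cytosolic genes rose, and EPRS1, LARS1 and VARS2 did not pass (adjusted p = 0.068, 0.058 and 0.093). Same-numbered samples had correlations of deviations of -0.11, -0.15 and 0.066. The sources used here do not state whether such samples share a culture or day, and these correlations cannot settle it. Small values changed sign, none of them past the threshold: without 1 sample KARS1 ran from -0.018 to 0.012, RARS1 from -0.036 to 0.00029, LARS2 from -0.048 to 0.058 and NARS2 from -0.018 to 0.11; RARS1 was at 0.0037 with quantile normalization and LARS2 at -0.011 with median centring; and averaging the probe sets put TARS2, WARS2 and AIMP1 at 0.033, -0.096 and -0.015. The cause of these moves was not tested.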
